A study of Mus musculus with 32 samples.

Results

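The axon guidance ligands and receptors on the array were taken as the probe sets annotated to a semaphorin, plexin, ephrin, Eph receptor, netrin, Slit, Robo or Unc5 gene, or to Nrp1, Nrp2 or Dcc. There were 99 such probe sets for 59 genes, among 22626 probe sets tested, which covered 12393 genes. The 59 genes comprised 33 ligands and 26 receptors. By family they were 8 netrins and netrin receptors, 6 Slits and Robos, 7 class 3 semaphorins and neuropilins, 12 other semaphorins, 7 plexins, 8 ephrins and 11 Eph receptors. The 2 netrin-G genes were counted with the netrins by name, although their products are membrane-anchored proteins that do not bind Dcc. A gene was described by its probe set of highest mean level, and its other probe sets are given where they differed.

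Guidance molecules steer growing axons by attraction or repulsion, and in the adult brain the same proteins take part in synapse maintenance, myelination and vascular signalling. Most secreted class 3 semaphorins act through a neuropilin bound to a plexin, whereas membrane-bound semaphorins bind plexins directly. Netrins attract through Dcc and repel through Unc5 receptors, Slits repel through Robos, and ephrins and Eph receptors signal in both directions where cells touch.

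The midbrain and the medulla were taken from each of 16 mice, giving 32 arrays in 8 groups of 4. The mice lacked the cholecystokinin B receptor gene Cckbr (KO) or were controls. Each genotype was either sham-operated or given a chronic constriction injury (CCI) of a nerve. CCI is a model of neuropathic pain, which the sample titles shorten to NP. Age, sex, strain and the time between operation and sampling were not given in the sources used here. How the gene was deleted is likewise not described. The tissue was bulk, so fewer cells of a type and less RNA per cell cannot be told apart in any value below. Levels are the deposited intensities in array units, and differences are on the scale of log2(intensity + 16) after quantile normalization, which understates the change of dim genes.

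Cckbr itself lay between 122 and 200 on the 16 control arrays and between -1.49 and 24.1 on the 16 KO arrays, without overlap. The region labels held as well. Of 14 midbrain regional markers 9 were higher in midbrain and 0 lower, and all 12 medulla regional markers measured, mostly Hox genes, were lower there. One library stood apart: KO sham medulla 3 carried cerebellar transcripts, with the granule cell gene Gabra6 at 1077 against 30.5 to 284 on the other 15 medulla arrays, and 6 cerebellar markers summing to 7675 where the next highest medulla array, control CCI medulla 2, had 3951. Control sham midbrain 3 was the highest midbrain array on each of these 6 markers, summing to 3368 where the next, KO CCI midbrain 1, had 2693. The 4 arrays of highest cerebellar markers, left out together below, were KO sham medulla 3, control CCI medulla 2, control sham medulla 2 and control sham midbrain 3. On the first principal component KO sham midbrain 2 and 4 were the lowest midbrain arrays, at -36 and -26.4. They ended a spread rather than standing clear of it: control CCI midbrain 3 was at -16.2 and KO sham midbrain 3 at 21.8. Among medulla arrays KO sham medulla 3 stood clear, at 60.6 where the next, control CCI medulla 4, was at 2.3. By array number, KO sham medulla 3 and KO sham midbrain 4 came from the same mouse, as title numbers do not always mark mice. For short, KO sham medulla 3 and KO sham midbrain 2 and 4 are called the 3 KO sham arrays, although only KO sham medulla 3 stood clear. Genes whose region call changed without them are named below.

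On KO sham medulla 3, 8 of the 59 guidance genes lay above and 13 below all of the other 15 medulla arrays. These 21 were 35.6% of the members, where 42.4% of all genes lay outside that range. The netrin receptor Unc5c stood at 300.5 against 137 to 202, the attractant Ntn1 at 222 against 109 to 146, and the netrin receptor Dcc at 101 against 41.8 to 84.8. Epha8, Plxna2, Sema4d, Sema3f and Plxnb2 were the other 5 above the range. Below it lay Ntng2 at -0.43 against 29.3 to 82.5 and Efna1 at 5.31 against 25.2 to 52.7, together with Efna2, Ephb4, Slit1, Epha1, Epha4, Nrp1, Epha6, Efnb3, Ephb6, Plxnc1 and Sema6a. The part of the cerebellar transcripts in these values was not tested.

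**Figure D1:**
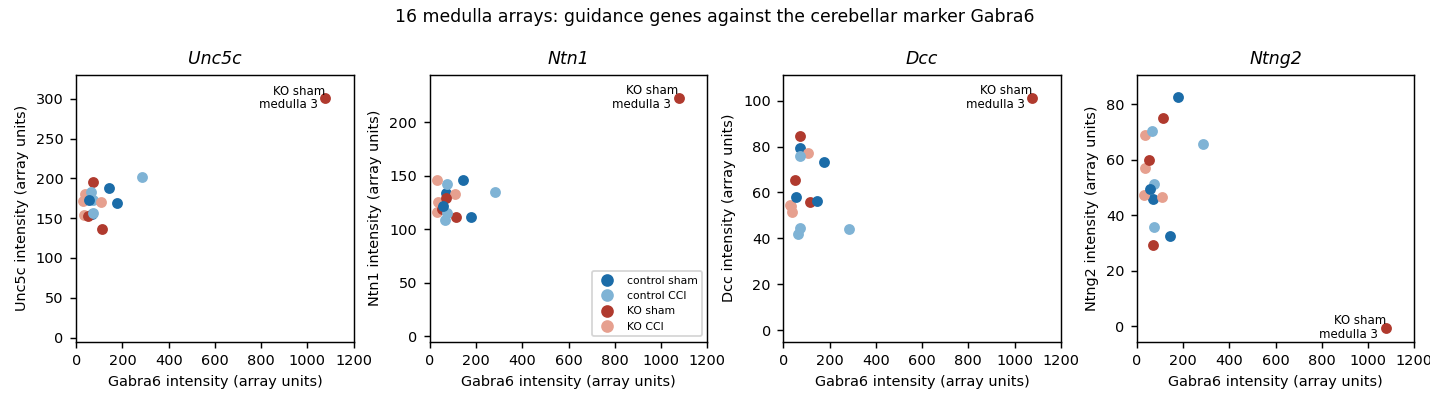
Intensities of Unc5c, Ntn1, Dcc and Ntng2 (vertical axes, array units) against the cerebellar marker Gabra6 (horizontal axis, array units) on the 16 medulla arrays, coloured by group. KO sham medulla 3, at a Gabra6 level of 1077, stands above the other 15 arrays for Unc5c, Ntn1 and Dcc and below them for Ntng2.

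Midbrain and medulla were compared over all 16 mice, in a fit that did not pair the regions of a mouse. The paired fit is given below as the fit with the animal as a block. The arrays of a mouse were inferred from consecutive array numbers, and the counts of mice below rest on this too. The largest differences among the guidance genes were in 4 members, each of more than 1.5-fold. The repellent Sema3a was higher in medulla. The semaphorin receptor Plxnc1, the netrin-G gene Ntng1 and the repellent Sema3f were higher in midbrain. Of the 59 genes 22 passed an adjusted p of 0.05 in limma's moderated test (Benjamini and Hochberg adjustment over all probe sets), 14 higher in midbrain and 8 higher in medulla. Leaving out Sema4a, whose probe sets passed in opposite directions, the split was 14 and 7. The 22 calls were 37.3% of the members, where 24.3% of all genes passed (12.2% higher in midbrain and 12.1% lower). Of the 99 probe sets 40 passed, 25 higher and 15 lower in midbrain, against 21.5% of all probe sets (10.5% higher and 10.9% lower). The median difference of the members was 0.02, against 0.01 over all genes, and the median absolute difference was 0.15, against 0.10. Of the 22 genes called, 4 differed by more than 1.5-fold.

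**Figure D2:**
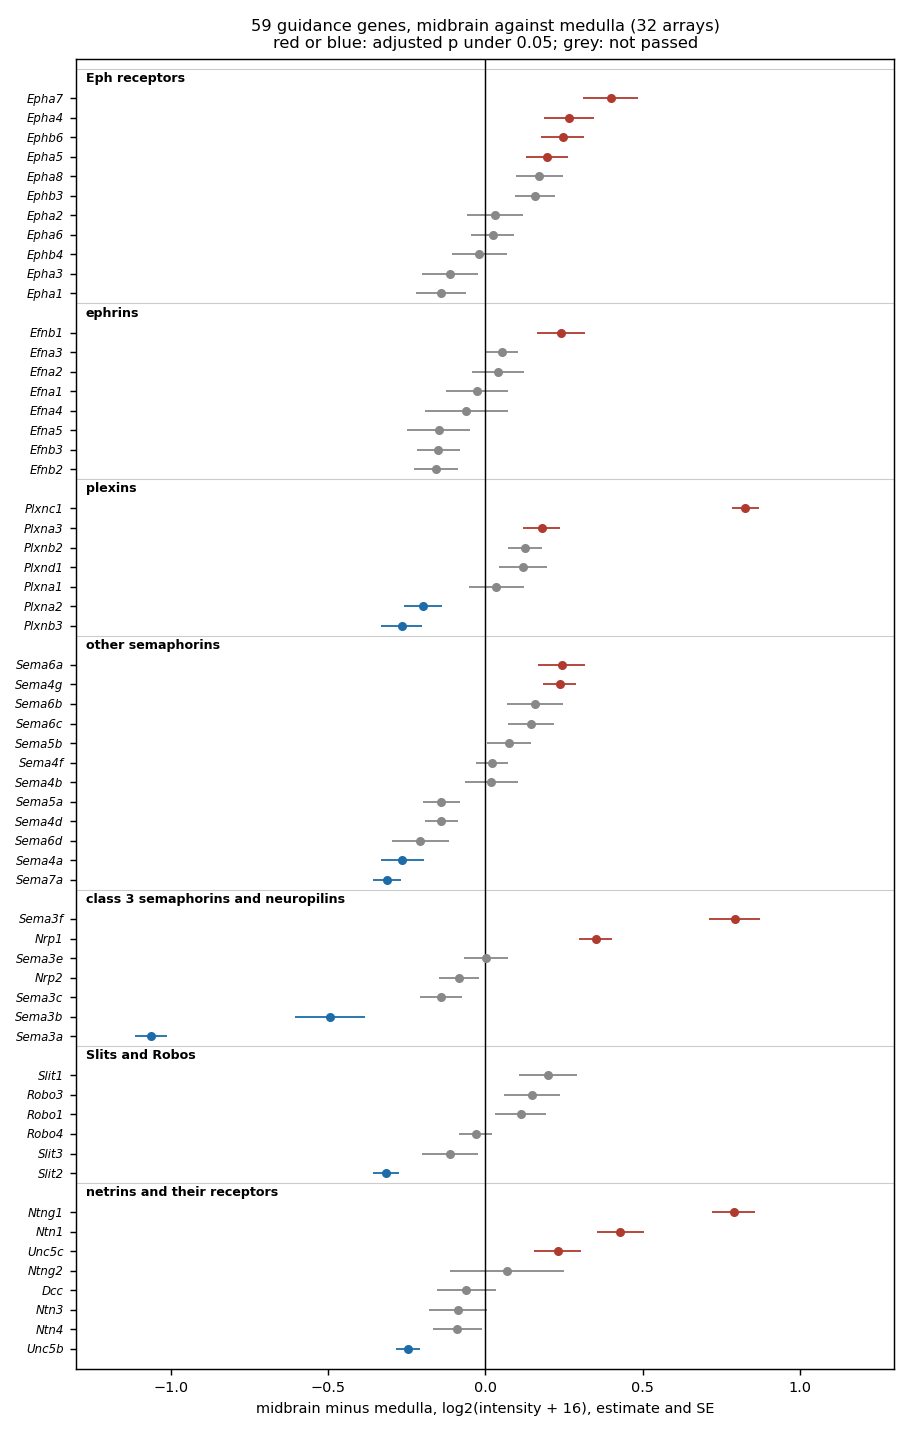
Midbrain minus medulla difference of each of the 59 genes (horizontal axis, log2 of intensity + 16, point with its SE, 16 arrays per region), grouped by family. Sema3a at -1.06 and Plxnc1, Sema3f and Ntng1 between 0.79 and 0.83 stand farthest from 0, and the 37 grey genes did not pass.

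Sema3a, the secreted repellent that signals through Nrp1 and A-type plexins, ran from 121 to 181 in medulla (median 151) and from 48.9 to 75.8 in midbrain (median 64.04). Every medulla array was therefore above every midbrain array, and Sema3a was lower in midbrain in all 16 mice. In medulla the means were 139 ± 13.7 (SD, n = 4) in control sham, 158 ± 9.99 in control CCI, 149 ± 9.89 in KO sham mice and 155 ± 21.9 in those with CCI. In midbrain they were 58.0 ± 8.10, 66.9 ± 5.71, 62.8 ± 8.43 and 66.2 ± 8.85 in the same order. The difference, midbrain minus medulla, was -1.06 (SE 0.05, 2.09-fold, limma adjusted p 2.24e-15). It was -1.08, -1.02, -1.08 and -1.07 in control sham, control CCI, KO sham and KO CCI mice. The other 2 probe sets of Sema3a passed in the same direction but lay near background, with means of 22.8 and 13.5 units over all arrays.

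Plxnc1, the plexin that binds Sema7a, ran from 106 to 152 in medulla (median 128) and from 209 to 268 in midbrain (median 234). Again no array of one region reached the other, and Plxnc1 was higher in midbrain in all 16 mice. The difference was 0.83 (SE 0.04, 1.77-fold, limma adjusted p 1.29e-14), and 0.74, 0.84, 0.95 and 0.78 in control sham, control CCI, KO sham and KO CCI mice. The other 3 probe sets passed in the same direction, at 0.60 and 0.42 and on a set near background with a mean of 16.7 units. The set at 0.42 lost its call in 17 of 32 fits that each left out 1 array.

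Ntng1, a membrane-anchored netrin-G of axons that binds a postsynaptic partner, ran from 203 to 298 in medulla (median 234) and from 302 to 528 in midbrain (median 413). The highest medulla array, KO CCI medulla 3, and the lowest midbrain array, control CCI midbrain 2, almost met. The midbrain arrays of KO sham mice fell into a low pair at 370 and 332 and a high pair at 528 and 524, the high pair being KO sham midbrain 2 and 4. The difference was 0.79 (SE 0.07, 1.73-fold, limma adjusted p 8.43e-10), higher in midbrain in all 16 mice. Without the 3 KO sham arrays it was 0.72 with limma adjusted p 5.71e-09. A dimmer probe set passed at 0.30. Sema3a, Plxnc1 and Ntng1 were the 3 of 59 genes whose arrays did not overlap between the regions, as was the case for 1.9% of all genes.

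For the 3 genes with non-overlapping arrays, the 250 bases upstream of 1 RefSeq transcript start each are shown, on GRCm38.p6 and along the gene's strand, since they are unlike each other in base composition. These starts are not the 5′ ends of the annotated genes: they lie 272.0 kb inside the span of Sema3a, 6.5 kb inside that of Ntng1 and 0.17 kb inside that of Plxnc1. Which start is used in these tissues was not measured. Capitals mark GC boxes (GGGCGG, or CCGCCC on the other strand). The windows are chr5:13396534-13396783 on the plus strand for Sema3a, chr10:94944846-94945095 on the minus strand for Plxnc1 and chr3:110143473-110143722 on the minus strand for Ntng1.
Sema3a: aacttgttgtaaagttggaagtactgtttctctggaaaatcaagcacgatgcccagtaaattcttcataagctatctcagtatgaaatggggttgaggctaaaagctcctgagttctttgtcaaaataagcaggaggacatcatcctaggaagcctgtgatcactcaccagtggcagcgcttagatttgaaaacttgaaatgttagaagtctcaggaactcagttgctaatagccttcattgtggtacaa
Plxnc1: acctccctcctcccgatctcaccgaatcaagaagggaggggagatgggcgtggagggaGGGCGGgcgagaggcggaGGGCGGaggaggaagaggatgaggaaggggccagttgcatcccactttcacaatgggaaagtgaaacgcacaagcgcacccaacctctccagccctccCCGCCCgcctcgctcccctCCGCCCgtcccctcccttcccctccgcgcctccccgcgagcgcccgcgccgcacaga
Ntng1: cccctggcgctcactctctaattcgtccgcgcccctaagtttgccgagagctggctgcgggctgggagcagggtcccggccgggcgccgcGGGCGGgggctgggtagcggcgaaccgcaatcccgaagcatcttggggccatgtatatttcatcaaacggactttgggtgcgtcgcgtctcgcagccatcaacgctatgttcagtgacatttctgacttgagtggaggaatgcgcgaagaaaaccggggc
The Sema3a window had a GC content of 40.8% and 2 CpG pairs, the Plxnc1 window 68.8% and 22, and the Ntng1 window 62.4% and 25. Plxnc1 held 4 GC boxes, Ntng1 1 and Sema3a 0, and 32.7% of the 32851 mouse promoter windows of this length held at least 1. None of the 3 windows held CCAAT (33.8% of windows), TATAAA (12.4%), the Otx core TAATCC (6.25%) or the homeodomain core TAATTA (4.84%) on either strand. A match is a description of these letters only. Windows were found for 51 of the 59 genes.

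**Figure D3:**
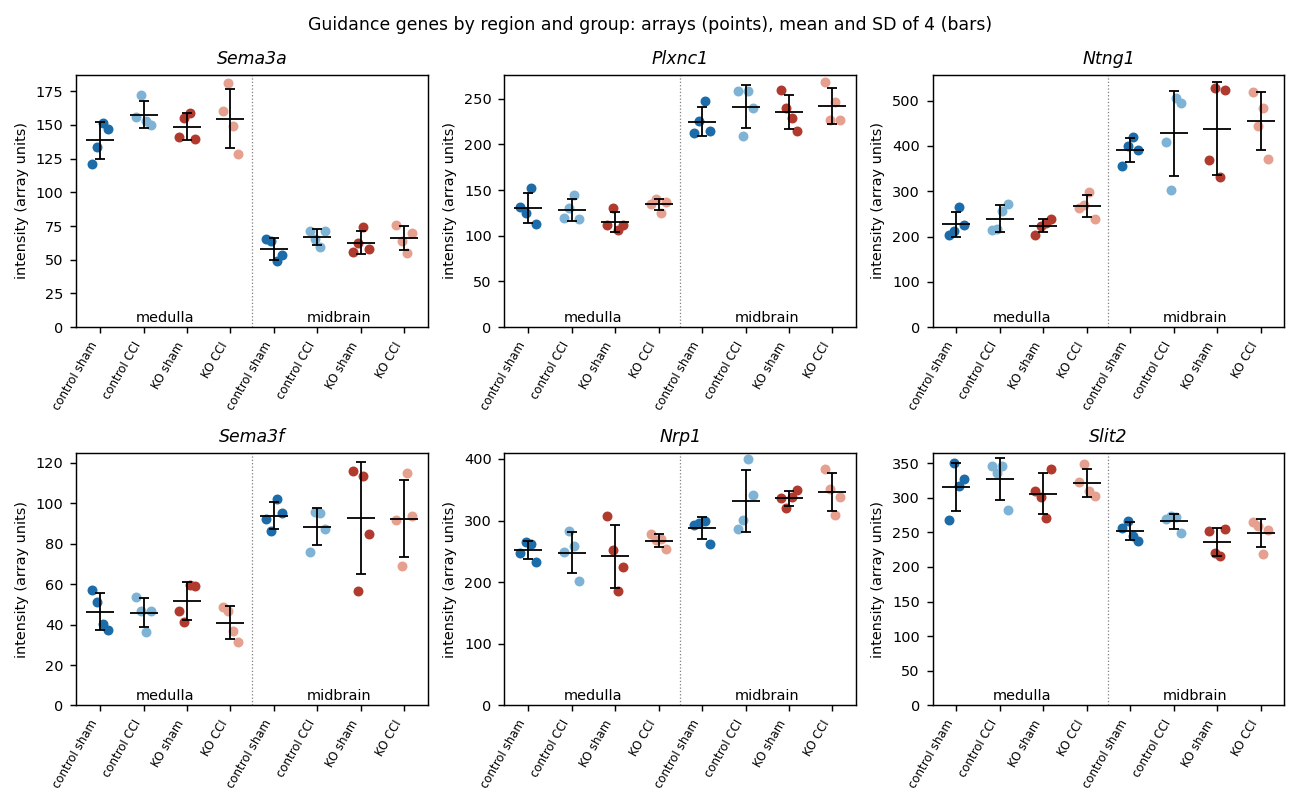
Deposited intensities (vertical axes, array units, from 0) of 6 guidance genes on all 32 arrays, in the 4 medulla groups (left of the dotted line) and the 4 midbrain groups (right), with points for arrays and bars for the mean and SD of 4. Sema3a and Slit2 lie lower and Plxnc1, Ntng1, Sema3f and Nrp1 higher in midbrain in each pair of groups, and the regions do not overlap for Sema3a, Plxnc1 and Ntng1.

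Among the class 3 semaphorins and neuropilins 2 genes were higher in midbrain, 2 were higher in medulla and 3 did not pass. Sema3f, a repellent that prefers Nrp2, ran from 31.5 to 59.7 in medulla (median 46.6) and from 56.7 to 116 in midbrain (median 92.8). The regions overlapped only through KO sham midbrain 2, the array at 56.7. The difference was 0.79 (SE 0.08, 1.73-fold, limma adjusted p 1.23e-08), with midbrain higher in all 16 mice. A second probe set passed in the same direction but lay near background, with a mean of 17.2 units. Sema3f and Sema3a, both secreted ligands, thus differed in opposite directions between the regions.

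The neuropilins, the ligand-binding receptors of most of this class, were set beside their ligands. Nrp1, the main receptor of Sema3a, ran from 185 to 307 in medulla (median 256) and from 261 to 399 in midbrain (median 328). It was higher in midbrain in all 16 mice, by 0.35 (SE 0.05, limma adjusted p 8.70e-06), and its other 2 probe sets passed at 0.34 and 0.31. So Sema3a was lower and Nrp1 higher in midbrain. For Sema3f and its receptor only the ligand passed: Nrp2 had medians of 130 in medulla and 127 in midbrain and a difference of -0.08 (SE 0.06, limma adjusted p 0.410).

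Sema3b, a class 3 semaphorin at low level, ran from 17.8 to 90.7 in medulla (median 59.97) and from 20.4 to 43.9 in midbrain (median 33.5). The difference was -0.49 (SE 0.11, limma adjusted p 1.54e-03), with midbrain lower in 13 of 16 mice, and its other 2 probe sets did not pass (-0.29 and -0.10). Choroid plexus markers moved with the region in the same direction: all 5 measured were lower in midbrain, their sum running from 264 to 5356 in midbrain and from 999 to 10966 in medulla. In midbrain 3 of the 5 (Folr1, Kcne2 and Kl) had medians under 32 units. The medulla array with the lowest choroid plexus sum, control sham medulla 4 at 999, also had the lowest Sema3b at 17.8, and the array with the highest sum, control CCI medulla 1 at 10966, had 90.0. The order did not hold throughout: KO CCI medulla 1, with the second lowest sum at 1560, had Sema3b at 38.1, above KO CCI medulla 2 with 35.7 at a sum of 8441, and the highest Sema3b, 90.7, was on KO sham medulla 4 at a sum of 10289.5. The part of the choroid plexus in the Sema3b result was not tested. The remaining ligands of the class did not pass: Sema3c had a difference of -0.14 (limma adjusted p 0.143) and Sema3e of 0.0010 (limma adjusted p 0.994).

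Of the 12 other semaphorins, most of them membrane-bound, 2 were higher in midbrain, 1 (Sema7a) was higher in medulla, 1 (Sema4a) passed in opposite directions on different probe sets and 8 did not pass. Sema7a, a membrane-anchored ligand of Plxnc1 and of integrins, ran from 524 to 704 in medulla (median 615) and from 435 to 595 in midbrain (median 494). It was lower in midbrain in all 16 mice, by -0.31 (SE 0.04, limma adjusted p 4.34e-06). A second set passed in the same direction but lay near background, with a mean of 16.5 units. The ligand Sema7a and its receptor Plxnc1 therefore differed in opposite directions. The transmembrane semaphorins Sema4g and Sema6a were higher in midbrain by 0.24 each (SE 0.05 and 0.07, limma adjusted p 9.87e-04 and 0.0182). Sema6a lost its call without the 4 arrays of highest cerebellar markers (limma adjusted p 0.0751).

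Sema4a, a transmembrane semaphorin, was read in opposite directions by its probe sets. The brighter set, whose probes are marked by the manufacturer's suffix as possibly shared with other transcripts, ran from 388 to 574 in medulla and from 258 to 493 in midbrain, a difference of -0.26 (limma adjusted p 6.00e-03). The other set had medians of 130 in medulla and 162 in midbrain, a difference of 0.28 (limma adjusted p 5.14e-04). No direction can be given for Sema4a. Sema4d, a ligand made by oligodendrocytes, missed the threshold on its brightest set (-0.14, limma adjusted p 0.0551), passed there with the animal as a block (0.0317), and passed on another set at -0.21 and on a further set near background (mean 23.4).

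Among the 7 plexins, Plxnc1 and Plxna3 were higher in midbrain, Plxnb3 and Plxna2 were higher in medulla and 3 did not pass. Plxna3, a signalling partner of the neuropilins, ran from 77.1 to 129 in medulla and from 83.8 to 126 in midbrain, with a difference of 0.18 (SE 0.06, limma adjusted p 0.0256) and overlapping arrays. A second Plxna3 set of nearly the same mean level (99 against 100.2 units) did not pass, at -0.05. The direction given for Plxna3 thus rests on the slightly brighter set alone. Plxna2 differed by -0.20 (SE 0.06, limma adjusted p 0.0207), which was lost without the 4 arrays of highest cerebellar markers (limma adjusted p 0.0758).

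Plxnb3, a plexin expressed by oligodendrocytes, ran from 103 to 179 in medulla (median 153) and from 80.4 to 152 in midbrain (median 124). It was lower in midbrain in 15 of 16 mice, by -0.27 (SE 0.07, limma adjusted p 3.23e-03). Myelin markers moved in the same direction: 8 of 10 were lower in midbrain and 0 higher, with a median difference of -0.28, and their summed level ran from 22929 to 25885 in midbrain and from 25606 to 29958 in medulla. Astrocyte markers (5 of 8 lower, 1 higher) and neuron markers (4 of 8 lower, 1 higher) also differed, while 0 of 8 microglial markers passed in limma (1 had an unadjusted p under 0.05). The part of cell content in the values of Plxnb3 and Sema4d was not tested.

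Netrins and their receptors included 3 genes higher in midbrain, 1 higher in medulla and 4 that did not pass. Ntn1, the classical secreted netrin, ran from 109 to 222 in medulla (median 127) and from 149 to 262 in midbrain (median 178). Within each mouse the midbrain array was the higher, in 16 of 16, and the top medulla array was KO sham medulla 3. The difference was 0.43 (SE 0.07, limma adjusted p 7.65e-05), and without the 3 KO sham arrays 0.43 with limma adjusted p 4.09e-07. A dim second set, with medians of 16.9 and 12.6, did not pass.

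The netrin receptors did not move together. Unc5b, a repulsive receptor also prominent in vessels, ran from 369 to 461 in medulla (median 411) and from 292 to 413 in midbrain (median 338), lower in midbrain by -0.25 (SE 0.04, limma adjusted p 2.07e-05). Unc5c, a repulsive receptor of neurons, ran from 137 to 300.5 in medulla (median 173) and from 174 to 267 in midbrain (median 206), a difference of 0.23 (SE 0.07, limma adjusted p 0.0243). Its highest medulla array was again KO sham medulla 3, and without the 4 arrays of highest cerebellar markers the difference was 0.28 with limma adjusted p 8.28e-04. The call was lost without KO sham midbrain 2 and 4 (0.20, limma adjusted p 0.0669) and held without these and KO sham medulla 3 (0.25, limma adjusted p 1.04e-03). Dcc, the attractive receptor, had medians of 57.2 in medulla and 64.3 in midbrain and did not pass (-0.06, SE 0.09, limma adjusted p 0.718). Ntn3, Ntn4 and Ntng2 did not pass either, with differences from -0.09 to 0.07.

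Of 6 Slits and Robos 1 passed, Slit2. This secreted repellent ran from 267 to 350 in medulla (median 320) and from 216 to 273 in midbrain (median 254). It was lower in midbrain in all 16 mice, by -0.32 (SE 0.04, limma adjusted p 1.51e-06), and its second probe set passed at -0.29. Slit1 had a difference of 0.20 that did not pass (limma adjusted p 0.140) but did with the animal as a block (limma adjusted p 9.35e-03). Robo1, a Slit receptor at 251 and 262 as medians, had a difference of 0.11 (SE 0.08, limma adjusted p 0.381), and Robo3, Robo4 and Slit3 did not pass.

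Of 11 Eph receptors 4 were higher in midbrain, 0 were lower and 7 did not pass, and the family median was 0.16. Epha7, a receptor of A-type ephrins, ran from 37.3 to 74.4 in medulla (median 65.1) and from 50.1 to 123 in midbrain (median 82.0). It was higher in midbrain in 15 of 16 mice, by 0.40 (SE 0.09, limma adjusted p 1.06e-03), and all 3 of its probe sets passed. Epha4, which binds ephrins of both classes, ran from 81.6 to 140 in medulla (median 119) and from 58.5 to 192 in midbrain (median 151). The array at 58.5 was KO sham midbrain 2, on which 8 neuron markers summed to 15556, against a midbrain median of 19926, and the part of this in the Epha4 values was not tested. The difference was 0.27 (SE 0.08, limma adjusted p 0.0149), and 0.33 with limma adjusted p 1.04e-03 without the 3 KO sham arrays. A second Epha4 set gave 0.30 and did not pass (limma adjusted p 0.168).

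The kinase-inactive receptor Ephb6 was higher in midbrain by 0.25 (SE 0.07, limma adjusted p 8.69e-03), and Epha5, a receptor of A-type ephrins, by 0.20 (SE 0.07, limma adjusted p 0.0321). The Epha5 call was lost in 6 of the 32 fits without 1 array (highest limma adjusted p 0.0600) and without the 3 KO sham arrays (0.0826). Epha1, at medians of 102 in medulla and 87.3 in midbrain, did not pass at -0.14 (limma adjusted p 0.230), but gave -0.25 with limma adjusted p 4.22e-03 without those 3 arrays. In that fit, which was chosen after seeing the data, Epha8, Efnb2, Efnb3, Plxnd1 and Sema6c passed as well.

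Among the 8 ephrins, the membrane-bound ligands of Eph receptors, Efnb1 alone passed. It ran from 39.1 to 86 in medulla (median 66.5) and from 65.5 to 120 in midbrain (median 79.3). The difference was 0.24 (SE 0.08, limma adjusted p 0.0219). Its call was lost without the 3 KO sham arrays (0.16, limma adjusted p 0.121). Efnb2, a ligand of B-type receptors, missed the threshold on its brightest set (-0.16, limma adjusted p 0.120) and passed on another (-0.21, limma adjusted p 4.06e-03). Efnb3, a ligand of B-type receptors and Epha4 with medians of 695 in medulla and 606 in midbrain, gave -0.15 (limma adjusted p 0.126). None of the 5 A-type ephrins passed. Efna2, Efna4 and Efna5, like Ephb4 and Robo3, were under 32 units in both regions, where no fold is given.

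The calls were read again within array codes, the chip numbers in the sample descriptions. This was done for 2 codes, with 14 and 16 arrays, which each held arrays of all 8 groups. The code of 14 had 1 control sham array per region. A further code held control sham medulla 1 and control sham midbrain 1 alone. All 22 genes kept their direction within each of the codes of 14 and 16 arrays. Arrays of both codes entered the calls, so this was largely set in advance. Of the 22 genes 9 passed within the code of 14 arrays and 11 within that of 16, where fewer arrays were compared. Sema3a gave -1.04 and -1.11 within the codes of 14 and 16 arrays, Plxnc1 0.85 and 0.82, Ntng1 0.86 and 0.73, and Sema3f 0.65 and 0.95, each of them past the threshold. Of the 22 calls, 21 held in each of the 32 fits without 1 array, all 22 with the animal as a block, 19 without KO sham midbrain 2 and 4 (Efnb1, Epha5 and Unc5c being lost), and 18 without the 4 arrays of highest cerebellar markers. The animal block, which pairs the midbrain and medulla of each mouse, added 5 calls: Slit1 and Sema4d, Ephb3 (0.16, limma adjusted p 0.0295), Plxnb2 (0.13, limma adjusted p 0.0282) and Sema5a (-0.14, limma adjusted p 0.0434).

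The region comparison was then made separately in control and KO mice, which share no array. In control mice 11 of the 59 genes passed (11.9% of all genes did, and 18 of 99 member probe sets against 9.86% of all probe sets), and in KO mice 17 passed (15.6% of all genes, and 28 of 99 against 13.7%). There were 10 genes called in both, and the 22 genes called over all mice had the same sign in both genotypes. Those 22 were chosen on the average of both genotypes, so their like sign was largely set by that choice. Over all 59 genes 44 had the same sign. Sema3a gave -1.05 in control and -1.07 in KO mice, Plxnc1 0.79 and 0.86, Ntng1 0.76 and 0.81, and Sema3f 0.81 and 0.77.

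Sema6c, a transmembrane semaphorin, had a region difference of -0.02 in control and 0.32 in KO mice (limma adjusted p 0.941 and 0.0415). Epha4 had 0.35 in control mice (limma adjusted p 0.0482) and 0.19 in KO mice (0.302). It had 0.08 in the KO sham group, which includes the 3 KO sham arrays left out above. Efna5, near background at medians of 16.5 in medulla and 14.4 in midbrain, passed in KO mice alone (limma adjusted p 0.0241). The test of the difference itself, the genotype by region interaction, called 0 members, with limma adjusted p 1.0 for Efna5 (unadjusted p 0.00317) and for Sema6c (unadjusted p 0.0286). A region difference that depended on genotype was thus not called for any member.

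**Figure D4:**
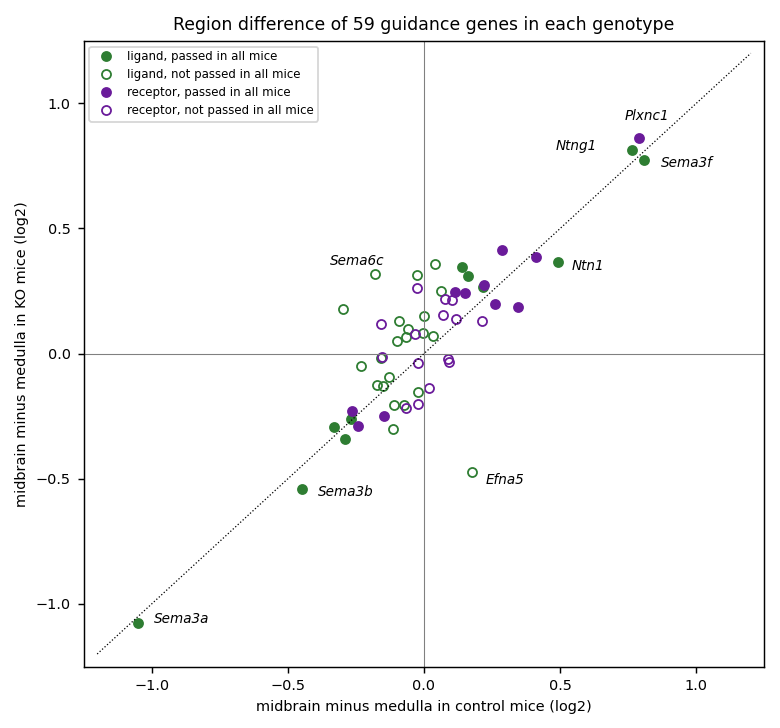
Midbrain minus medulla difference (log2) of each of the 59 genes in control mice (horizontal axis) and in KO mice (vertical axis), 8 arrays per region in each, ligands in green and receptors in purple, filled where the gene passed over all mice. Sema3a, Plxnc1, Ntng1 and Sema3f lie near the dotted line of equality, and Efna5, under 32 units in both regions, lies farthest from it.

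Genes that act downstream of or beside these receptors were listed from textbook pathways and read off the same fit. Of 49 measured intracellular effectors 7 were higher in midbrain and 4 lower, 22.4% in all against 24.3% of all genes, with a median of 0.01, the same as over all genes. The share of effectors called was thus near that of all genes, and the following are single members of the list. Ngef, the exchange factor ephexin that acts downstream of EphA receptors, stood at 304 ± 24.7 in medulla and 580 ± 41.5 in midbrain (SD, n = 16), higher in midbrain by 0.90 (SE 0.04, limma adjusted p 9.44e-16). Cdk5r1, the activator of Cdk5, was higher by 0.48 and the collapsin response mediator Crmp1 by 0.32, while Limk1, which phosphorylates cofilin, was lower by -0.48 and the collapsin response mediator Dpysl3 by -0.24. Of 38 other cues, receptors and adhesion molecules 11 were higher in midbrain (28.9%) and 5 lower (13.2%), against 12.2% and 12.1% of all genes, with a median of 0.08. The adhesion molecules Cntn4 (0.64), Ncam1 (0.48) and Chl1 (0.41) were among the higher, and the myelin inhibitor Mag (-0.43) among the lower. In the other 15 comparisons 0 genes of either list passed.

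Genotype was compared within each region. The question was whether loss of Cckbr, a receptor for the neuropeptide cholecystokinin, altered guidance genes. In limma 0 of 99 member probe sets passed in medulla, averaged over operations, in sham or in CCI mice (0.053%, 0.0133% and 0.00442% of all probe sets did). In midbrain 0 passed either (0.0309%, 0.0133% and 0.00884%). At an unadjusted p under 0.05 there were 6, 2 and 3 member probe sets in medulla, against 3.36%, 3.82% and 2.44% of all, and 8, 7 and 5 in midbrain, against 7.47%, 8.47% and 4.95%. Over the 54 members not under 32 units in both regions, the differences averaged over operations ran from -0.25 (Slit1) to 0.17 (Dcc) in medulla and from -0.21 (Epha4) to 0.31 (Sema6c) in midbrain. The median SE over all 59 was 0.10 in each.

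The genotype differences of smallest unadjusted p did not pass. Genes are ranked here and below by their brightest probe set, and in 9 of the 15 comparisons other than region a dimmer member set had a smaller p that did not pass either. Sema6c in midbrain stood at 101, 146, 151 and 162 in control sham mice and at 118, 126, 126 and 132 in control CCI mice. KO mice gave 239, 142, 209 and 164 after the sham operation, and 129, 146, 195 and 149 after CCI. The genotypes overlapped, and KO minus control was 0.31 (SE 0.11, unadjusted p 0.0144, limma adjusted p 0.577), or 0.44 with limma adjusted p 0.101 without KO sham midbrain 2 and 4. Nrp1 in midbrain had 0.14 (unadjusted p 0.0325, limma adjusted p 0.637), and in medulla Sema4g had -0.19 (unadjusted p 0.0391, limma adjusted p 1.0). Efna5 and Ephb4, under 32 units, completed the 3 genes of smallest p in midbrain and medulla.

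Within sham mice, the smallest p among brightest sets in midbrain belonged to Epha4, at 110, 153, 163 and 162 in control and 123, 58.5, 134 and 102 in KO mice. KO minus control was -0.47 (unadjusted p 0.0204, limma adjusted p 0.554) and -0.18 without KO sham midbrain 2 and 4. A set of Sema4d near background had a smaller p (0.00239, limma adjusted p 0.474). Nrp1 (0.21) and Sema6c (0.39) came next, not passed (limma adjusted p 0.560 and 0.562). In sham medulla Sema3b (0.51) and Plxnb3 (-0.24) followed Efna5, each with limma adjusted p 0.996. Sema3b was 0.21 without control sham medulla 4 and Plxnb3 stood at -0.11 without KO sham medulla 2. Within the array code of 16 the Plxnb3 difference changed sign (0.0254). In CCI mice the leading genes were Ntng1 (0.15) and Epha1 (0.22) beside Ephb4 in medulla, each with limma adjusted p 1.0, and Sema3c (0.34), Sema4b (0.33) and Sema5b (0.25) in midbrain, each with limma adjusted p 0.966.

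CCI was compared with sham within each genotype, the question being whether nerve injury altered guidance genes in these brain regions. Of 99 member probe sets 0 passed in limma in the medulla of control or KO mice or in the midbrain of control or KO mice, as 0.0% of all probe sets did in each. At an unadjusted p under 0.05 there were 3, 4, 5 and 7 member probe sets, against 2.79%, 4.25%, 3.01% and 8.24% of all. The genotype by CCI interaction called 0 members in each region (0.0% of all probe sets), with 3 and 3 at an unadjusted p under 0.05, against 2.66% and 5.48%.

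Among the CCI differences that did not pass, Epha4 had the smallest p among brightest sets in KO midbrain, a dimmer set of Unc5c having a smaller one (0.49, unadjusted p 0.00650, limma adjusted p 0.600). Epha4 stood at 123, 58.5, 134 and 102 after sham surgery and at 192, 119, 170 and 158 after CCI, with overlap. CCI minus sham was 0.55 (SE 0.18, unadjusted p 0.00804, limma adjusted p 0.600), and 0.26 without KO sham midbrain 2 and 4. In KO medulla Epha4 stood at 102, 105, 81.6 and 93.3 in sham and at 121, 118, 126 and 135 in CCI mice. It did not pass there (0.33, limma adjusted p 0.992). Sema3c (0.36) and Epha7 (0.33) completed the KO midbrain genes, each with limma adjusted p 0.600.

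In KO medulla the smallest p belonged to Ntn4, a basement membrane netrin, at 59.1, 62.6, 65.4 and 77.4 in sham and at 41.04, 32.4, 38.01 and 58.6 in CCI mice. The difference of -0.48 (SE 0.15, unadjusted p 0.00674) did not pass (limma adjusted p 0.992). Unc5b followed with -0.20. In control medulla Sema3c stood at 40.3, 49.0, 45.6 and 53.1 in sham and at 62.4, 54.3, 65.7 and 70.5 in CCI mice. It did not pass (0.34, limma adjusted p 1.0), and Epha1 had -0.35. A dimmer set of Sema6a had the smallest p of any member probe set there (0.65, unadjusted p 7.61e-04, limma adjusted p 1.0). In control midbrain Nrp2 (0.25), Plxna3 (-0.19) and Epha3 (0.35) led, each with limma adjusted p 1.0.

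The interactions were read last. For genotype by CCI the leading genes were Sema3b (-0.86), Epha8 (-0.48) and Sema3c (-0.36) in medulla and Epha4 (0.53), Plxnb2 (-0.30) and Nrp2 (-0.32) in midbrain, none past the threshold (limma adjusted p 1.0 for each medulla gene and 0.822 for each midbrain gene). Genotype by region gave 0 member calls (0.0% of all probe sets) and 3 at an unadjusted p under 0.05 (3.81%), led by Efna5, Sema6c and Plxnd1. CCI by region gave 0 calls in control mice and 0 in KO mice (0.0% of all in each), with 0 and 3 at an unadjusted p under 0.05 (1.81% and 3.69%). Ephb4, Sema5b and Slit3 led in control mice and Robo3, Ntn4 and Sema3c in KO mice. Over the 15 comparisons other than region, 503 refits under alternative settings also called 0 members. Of the 45 uncalled differences named in these comparisons, 14 moved by more than 1.5 times when 1 array was left out and 0 changed sign.

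**Figure D5:**
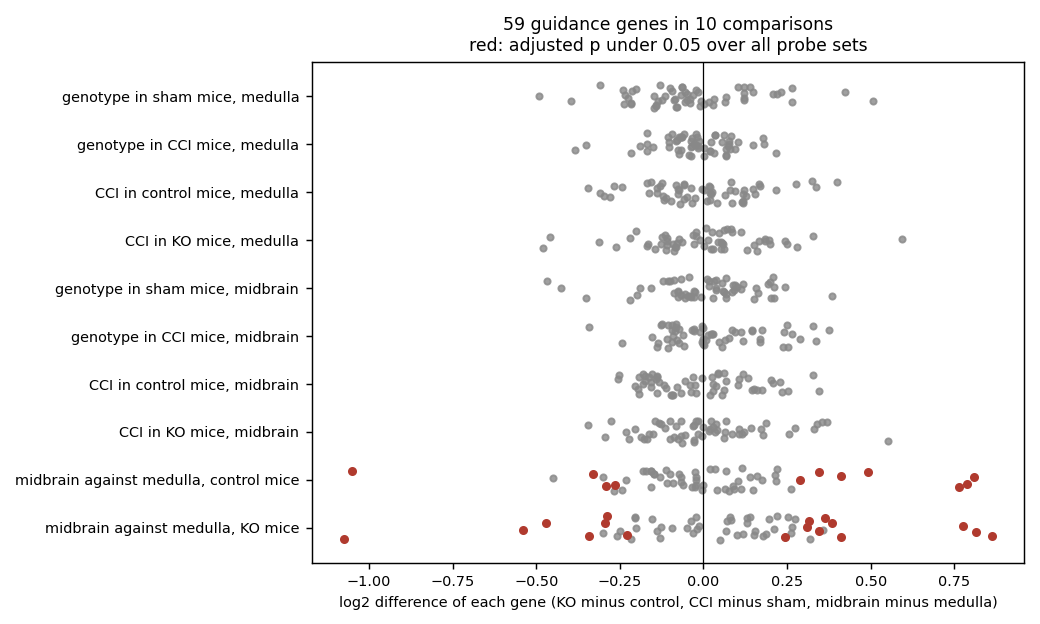
Differences (horizontal axis, log2, KO minus control, CCI minus sham or midbrain minus medulla) of the 59 genes in 10 comparisons, 1 point per gene, red where the adjusted p was under 0.05. Red points appear in the 2 region comparisons, 11 in control and 17 in KO mice, and in none of the 8 genotype and CCI comparisons.

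The precision sets how these counts read. A member gene's difference had a median SE of 0.07 for region over all mice, 0.14 to 0.15 for 2 groups of 4 and 0.15 to 0.21 for interactions. On simulated data a change of 1 on the log2 scale was recovered for 78% of probe sets in the comparison of CCI with sham in control medulla. In the region comparison it was recovered for 99%. There 100 probe sets changed by 1 and 100 by 2 at once, which eases the adjusted threshold. Where few probe sets change, as in the CCI comparisons, these shares may be too high. Changes of this size or smaller after CCI or loss of Cckbr could thus go uncalled here.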

How the data were processed

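TRIzol was used to extract total RNA, and cRNA labelled with biotin was hybridised to Affymetrix mouse arrays of 22690 probe sets, per the labels' protocols. The deposited values are intensities on a linear scale, 1 per probe set and array. They include values at or under 0 (2.15%), and array medians lay between 91.1 and 100.0, so the authors had scaled them. The software, background method and scaling were not given in the sources used here. No reads underlie the values, and the number of arrays limits the precision.

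Negative values were set to 0, 16 was added, log2 was taken and quantile normalization was applied. The 64 AFFX probe sets were left out. Probe sets were named from the platform annotation (20380 with 1 symbol, 691 with several and 1555 with none), and members came from those with 1. Group means were fitted with limma 3.58.1 in R 4.3.3, on 16 arrays within a region or 32 across regions. Tests were two-sided and moderated, adjusted by Benjamini and Hochberg over 22626 probe sets at a threshold of 0.05. On simulated data the region fit recovered 99% and 100% of 100 probe sets changed by 1 and 2 (log2), and the CCI fit in control medulla 78% and 97%. In these fits 8 and 12 unchanged probe sets were called.

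Arrays of a group are separate animals, per the series' design text. Arrays of a group correlated at 0.962 to 0.989, and 0 pairs were identical. Consecutive array numbers in the descriptions were taken to pair a medulla and a midbrain array of each animal. Residuals of these 16 pairs correlated at 0.172 on average (-0.05 to 0.364, 10 over 0.1), against -0.0567 for other animals. Title numbers within a region gave 0.054, against -0.0179.

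Called genes of the region comparison were named per family. In the other comparisons the 3 genes of smallest p were named as not passed. The members, lists and rules were chosen with earlier results of these data known. Alternatives covered pseudocount, normalization, brightness filter, variance model, array weights, blocks and single arrays left out. KO sham midbrain 2 and 4 were also left out together. Chosen after seeing the data were the fits within array codes, without the arrays with cerebellar markers and without the 3 KO sham arrays. Promoter windows came from RefSeq on GRCm38.p6.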

Additional observations from a re-analysis of the deposited data

Results flagged for a closer look

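Of 296 groups of 4 arrays (the 37 genes named with their values, in 8 groups each), 20 held an array whose gap to its nearest neighbour exceeded Dixon's critical share of the group's range, and chance gives about 1 in 20 such groups. KO sham medulla 3, the array with cerebellar transcripts, was marked for 3 genes: Ntn1 at 222 against 112 to 129 on the other 3 arrays, Epha1 at 63.1 against 108 to 116, and Efnb1 at 47.9 against 69.8 to 73.7. KO sham midbrain 2 was marked for Epha5 (188 against 140 to 147) and KO sham midbrain 4 for Slit3 (78.4 against 43.5 to 47.3). These were the lowest midbrain arrays on the first principal component. The same mouse, control CCI 4 by title, was low for Slit2 in medulla (282 against 336 to 346) and in midbrain (249.6 against 269 to 273), and its midbrain array was marked for Sema4g (111). Control sham midbrain 1 was marked for Plxna3 (83.8), Sema5b (61.6) and Epha7 (100.4). Plxna3 was also marked in control CCI medulla 3 (117) and control CCI midbrain 3 (104). The others were Ephb6 in KO CCI midbrain 2 (123), Sema3c in KO CCI midbrain 3 (73.2), Robo3 in KO sham medulla 1 (19.4), Nrp2 in KO sham medulla 4 (159), Unc5b in control sham midbrain 3 (364) and KO CCI medulla 2 (411), and Ntn4 in control CCI medulla 2 (54.3).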

How the results depend on the processing

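Over all 18 comparisons, 636 alternative counts of member probe sets stayed within 1.5 times the main count and 8 did not. For midbrain against medulla in all mice (40 probe sets of 99) the count was 23 of 59 with 1 probe set per gene, 16 within the array code of 14 and 18 within the array code of 16. In control mice (18) it was 11 with 1 probe set per gene, 2 within the array code of 14 and 6 within the array code of 16, and in KO mice (28) it was 13 within the array code of 14 and 7 within the array code of 16. Fewer probe sets or fewer arrays entered these fits. Leaving out 1 array at a time gave 38 to 42, 16 to 20 and 23 to 30. With the animal as a replicate block the counts were 48, 24 and 40, and this pairing kept all 22 gene calls and added 5. The title number as a block called 0 members in genotype and CCI comparisons. With limma's array weights 10 further genes passed, Sema4d and Epha1 among them. Of single-gene values, 4395 kept direction and side of the threshold, 151 lost and 47 gained a call, and 3 reversed: Plxnb3 for genotype in sham medulla within the array code of 16 (0.0254), Unc5c for region in KO mice within the array code of 16 (-0.0327) and Slit3 for CCI by region in control mice within the array code of 14 (-0.0924). The cause was not tested. Differences shrink as the pseudocount grows: Sema3a gave -1.23 with 1 and -0.74 with 64, Sema3f 0.98 and 0.50. Genes near background, and changes under about the SEs given, are what the signal and the 4 arrays per group limit.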
